A study of Homo sapiens with 23 samples.

Results

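The T530A-alone start sites are replication start sites that were mapped in HCT116 cells carrying the T530A form of SIRT1 and in none of the 3 other HCT116 nascent-strand lists. HCT116 is a colon carcinoma line. SIRT1 is a NAD-dependent deacetylase, and in T530A the threonine that becomes phosphorylated is replaced by alanine. They were selected on the positions of called peaks in these 4 lists, and no ChIP or K562 list was used. Members were the peaks of the T530A rescue list on chromosomes 1 to 22 and X that shared no base pair with a peak of the SIRT1-depleted, wild-type rescue or aphidicolin list. This left 18358 of the 103974 peaks of the T530A rescue list (17.7%), out of 1741457 peaks in the 21 lists of the series.

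The 4 lists came from a clone of HCT116 depleted of SIRT1, from a depleted clone in which wild-type SIRT1 was restored, from a depleted clone in which T530A SIRT1 was restored, and from wild-type HCT116 treated with 200 nM aphidicolin, an inhibitor of replicative DNA polymerases, for 24 h and released into fresh medium for 24 h. Both rescue clones thus carry the depletion, and the aphidicolin cells do not. Nascent strands are short, newly made DNA that resists lambda exonuclease and marks where replication began. ChIP-seq of untreated, unsynchronised wild-type HCT116 gave lists of phosphorylated SIRT1 (pSIRT1), of phosphorylated MCM2 (pMCM2) and of histone H4 acetylated at lysine 16 (H4K16ac), and fractionated cells of the leukemia line K562 gave further nascent-strand and ChIP lists. The pSIRT1 antibody recognises the phosphorylated threonine that T530A lacks, and no mark was profiled in the clones. Each group was 1 library, and the SIRT1 states were single clones per the labels. Clone, library, depth and genotype therefore cannot be told apart, no test between conditions was possible, and all differences below are differences between lists. The promoter driving the restored SIRT1 is not given in the sources used here.

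Replication of a human chromosome starts at many more places than any 1 cell uses. The MCM2 to MCM7 helicase is loaded in excess in G1, and only some loaded sites fire in S phase, while the rest stay dormant unless replication is slowed. Early-firing sites tend to lie in gene-rich, acetylated chromatin. H4K16ac is a mark of open chromatin that SIRT1 can remove, MCM2 is a subunit of the replicative helicase, and aphidicolin slows forks and so brings dormant sites into use.

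The lists did not have equal reach. Fewest peaks, 74479, came from the wild-type rescue, and they were the widest (median 3800 bp). The depleted list held 109990 and the aphidicolin list 96993 peaks, and their median width, like that of the T530A list, was 2400 bp. The smallest read count in the wild-type rescue list was 31, against 24 in the T530A list and 25 in the other two. A site below those limits is absent from a list whether or not it was used in the cells. Reads in peaks came to 15545568 in the T530A list, 14970644 in the wild-type rescue, 20014274 in the depleted and 13701955 in the aphidicolin list, and library totals are not known.

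T530A rescue peaks fell into 8 patterns of sharing. Of all T530A peaks, 35441 (34.1%) lay in all 3 other lists and 18358 (17.7%) in none. Those found in 1 other list numbered 9171 for the depleted list, 7500 for the wild-type rescue and 7782 for aphidicolin. The share of peaks that overlapped pSIRT1 was higher with each further list, at 15.5% in none, 36.5% in 1, 57.5% in 2 and 80.7% in all 3. For pMCM2 the same steps were 22.1, 35.3, 49.0 and 68.7%, and for H4K16ac 37.0, 57.1, 73.3 and 90.1%. Median width also rose over these steps, at 1600, 2000, 2400 and 3800 bp. In the middle 200 bp of the peaks the order was kept with lower shares. There pSIRT1 lay at 10.7, 26.5, 42.1 and 60.1%, and pMCM2 at 12.8, 20.1, 26.6 and 34.65%. H4K16ac lay at 22.6, 38.2, 51.15 and 67.2%. Which list a peak was shared with went along with the whole-peak share for pSIRT1. T530A peaks shared with the depleted list alone overlapped pSIRT1 at 58.4%, while those shared with the wild-type rescue alone or aphidicolin alone did so at 20.8 and 25.9%. K562 nascent strands gave another order, 36.8% for peaks shared with the depleted list alone, 46.5% with the wild-type rescue alone and 51.2% with aphidicolin alone. The T530A-alone peaks, at 35.9%, were lowest in K562 use among the 8 patterns and lowest in all 3 marks.

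**Figure D1:**
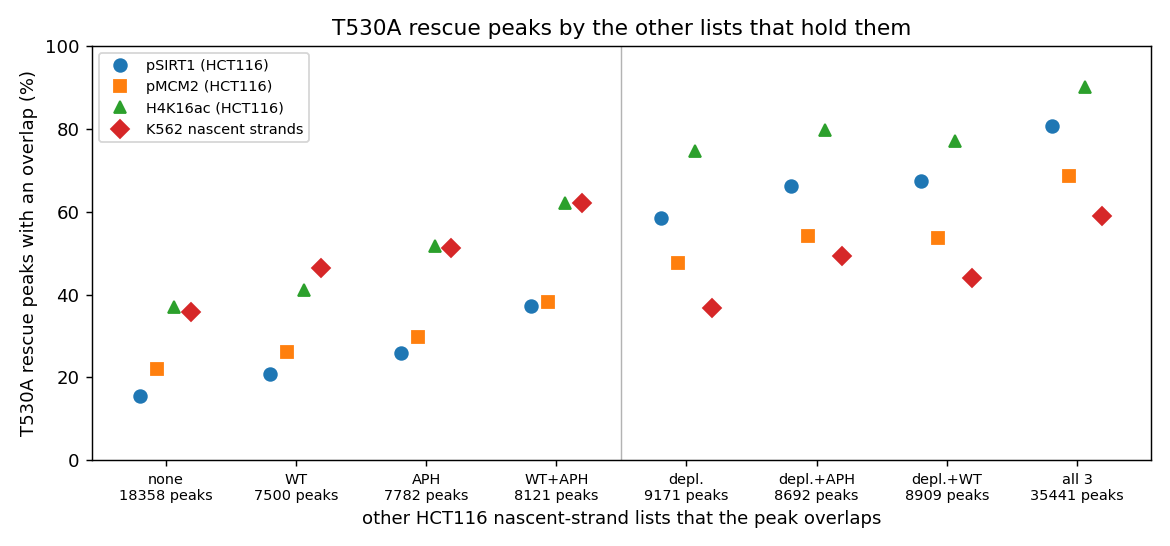
Share of T530A rescue peaks (y axis, %) that overlap each ChIP list of HCT116 or any of the 3 K562 nascent-strand lists, by the other HCT116 nascent-strand lists the peak overlaps (x axis; depl., SIRT1-depleted; WT, wild-type rescue; APH, aphidicolin). Points are single lists without replicates. Peak widths differ between the patterns, with medians from 1600 bp (none) to 3800 bp (all 3). The 4 patterns right of the line include the depleted list, and there pSIRT1 lies between 58.4 and 80.7%, against 15.5 to 37.2% left of it.

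The T530A-alone peaks were narrow and held few reads, values that come from the list that chose them and are given as a description. Their median width was 1600 bp (middle 50% of peaks 1000 to 2400 bp) against 2600 bp for T530A peaks shared with at least 1 other list. The median read count was 67 against 113. As a group the members covered 33.4 Mb of the 342.7 Mb in the list. Of the members, 9714 (52.9%) were in the lowest quartile of the T530A list by reads, with at most 68 reads, and 2953 (16.1%) reached the list median of 100. Only 376 (2.05%) lay in the highest quartile, above 166 reads, and 44 (0.240%) had more than 282 reads. Counted per kb, members and shared peaks were closer, at 42.5 and 44.9 reads. Within peaks of 1400 to 2400 bp, the class that held most members (8192), the medians were 71 reads for members and 83 for shared peaks. Among peaks over 2400 bp they were 111 and 179 reads.

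**Figure D2:**
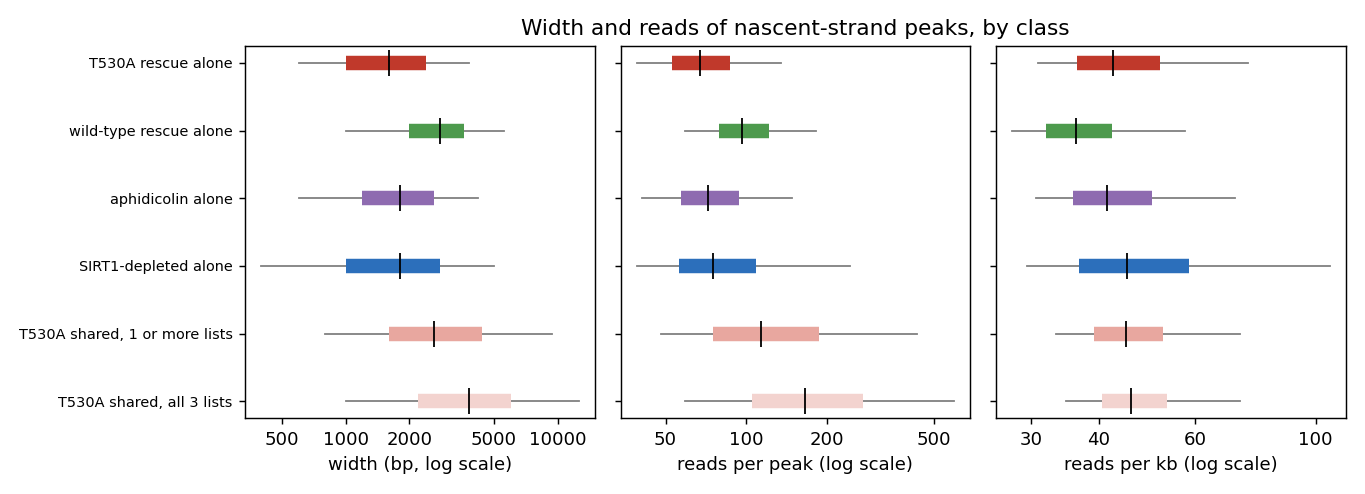
Width in bp, reads per peak and reads per kb (x axes, log scales) of 4 classes of peaks found in 1 HCT116 nascent-strand list and 2 classes of shared T530A peaks. The black tick is the median, the coloured bar the middle 50% and the grey line the 5th to 95th percentile of peaks. Within the T530A list, T530A-alone peaks have a median of 67 reads and peaks shared with at least 1 other list have 113. Reads of different lists are not scaled to each other.

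At the edge of the rule there were 297 members with a gap of at most 200 bp to another list, and 22.2% of them overlapped pSIRT1. The 563 T530A peaks just outside the rule, which shared at most 200 bp with the other lists, overlapped pSIRT1 at 25.9%. Members with gaps of 400 to 1000 bp stood at 22.8%, and shared peaks with 400 to 1000 bp in common at 43.5%. The sets on either side of the limit thus differed less in pSIRT1 than the shared peaks did among themselves.

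The marks were measured in wild-type cells and were not used to choose the members. Phosphorylated SIRT1 lay at 2851 T530A-alone peaks, 15.5% (95% exact binomial interval 15.01 to 16.1), beside 53.1% of all T530A rescue peaks and 61.1% (60.8 to 61.4) of the shared ones. pMCM2 lay at 4050, 22.1% (21.5 to 22.7), beside 47.7% of all and 53.2% of shared peaks. H4K16ac lay at 6800, 37.0% (36.3 to 37.7), beside 68.8% of all and 75.6% of shared peaks. The differences from shared peaks were -45.6, -31.2 and -38.6 percentage points. These intervals count peaks of 1 library and cover counting error only. Neighbouring peaks are not independent, and the spread between cultures is not known. In each of the 23 chromosomes the share among members was below that among shared peaks, for every one of the 3 marks. The chromosome with the highest pSIRT1 share among members had 46.1%, and the lowest share among shared peaks was 37.4%.

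Members were narrower than shared peaks, so overlaps were also counted in windows and classes of like width. The mean pSIRT1 difference over 4 width classes was -37.3 points. In 200 bp around the peak middle, 10.7% of members met pSIRT1 against 45.1% of shared peaks. pMCM2 met 12.8 against 28.1% and H4K16ac 22.6 against 54.1%. Over the whole chromosomes, the 3 lists cover 9.22, 6.18 and 12.6% of the span up to the last mapped region. Coverage counts single bases, and a 200 bp window meets a list more often than a single base does. The measures are thus not alike, and an excess over coverage was not tested. Within the narrowest class, up to 600 bp, 14.8% of members and 43.6% of shared peaks overlapped pSIRT1. In the widest, over 2400 bp, the shares were 21.03 and 71.9%. Members of 800 to 2400 bp, in the 2 middle classes, had 13.5 and 14.3%.

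The chromosomal surroundings of the members were also poorer in marks than those of shared peaks. Within 50 kb of the middle, not counting the peak itself, a T530A-alone peak had a median of 2 pSIRT1 peaks, 4 pMCM2 peaks and 6 H4K16ac peaks. A shared T530A peak had 7, 7 and 12. No pSIRT1 peak lay in that window for 19.8% of members and 8.09% of shared peaks. Peaks found only in the wild-type rescue list had medians of 2, 4 and 6, and 20.2% had no pSIRT1 peak there. Those found only in the aphidicolin list had 2, 4 and 7, with 18.85%, and those of the depleted list 4, 5 and 10, with 14.4%. Surroundings this poor in marks were thus not particular to the members. When members were set against shared peaks of the same 1 Mb bin, shared peaks overlapped pSIRT1 at 47.5% in place of 61.1%, and the difference was -32.0 points. With width class matched as well it was -28.6 points for pSIRT1, -18.5 for pMCM2 and -24.8 for H4K16ac. Matched by bin and width class, the difference was thus smaller in each mark and kept its sign. The widest class has no upper limit and read counts were not matched, so width was held alike only in part. These comparisons within bins were chosen after seeing the data.

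More than 1 in 2 members, 9383 (51.1%), overlapped none of the 3 marks, beside 21.3% of all T530A rescue peaks and 14.9% of the shared ones. All 3 marks together lay at 994 members (5.41%), beside 32.4% of all peaks and 38.1% of shared ones. Single marks had another order. H4K16ac alone lay at 3277 members (17.9%), beside 12.4% of all T530A rescue peaks and 11.2% of shared ones. pMCM2 alone lay at 1513 (8.24%), beside 5.13% of all and 4.47% of shared peaks. Both were thus more frequent alone among members than among shared peaks. Peaks found only in the wild-type rescue list had like shares, 18.6 and 8.61%, as did those found only in the aphidicolin list, 18.85 and 7.90%. pSIRT1 alone lay at 453 (2.47%), beside 2.72% of all and 2.77% of shared peaks. Of the members with pSIRT1, most also carried H4K16ac, 1195 without pMCM2 and 994 with it. Mark peaks at members also held fewer reads, or had a lower score, within their own lists. pSIRT1 peaks that touched members and no shared peak had a median of 38 reads, against 66 for those at shared peaks and 51 over the pSIRT1 list. The corresponding pMCM2 medians were 43, 65 and 47 reads, and the H4K16ac caller scores 32, 49 and 35. Peaks of the 3 lists that touched no T530A peak lay close to these values, and their medians were 41 reads, 40 reads and a score of 31. Mark peaks that touched members only were also narrower than those at shared peaks only. The median widths were 1199 against 1999 bp for pSIRT1, 800 against 1200 bp for pMCM2 and 692.5 against 1342 bp for H4K16ac. Counts and scores here are per mark peak and not per kb.

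Peaks found in a single list offer the closest comparison. The wild-type rescue alone had 7744 such peaks, the aphidicolin list 19057 and the depleted list 28856. pSIRT1 overlapped 15.9% (15.1 to 16.8) of the wild-type-rescue-alone and 13.5% (13.0 to 13.96) of the aphidicolin-alone peaks, close to the 15.5% of the T530A-alone peaks. It overlapped 43.5% (43.0 to 44.1) of the depleted-alone peaks. pMCM2 followed at 22.99, 20.5 and 38.8% and H4K16ac at 38.8, 36.1 and 63.3%. The share with none of the 3 marks was 51.1% for T530A alone, 49.2% for the wild-type rescue alone, 53.0% for aphidicolin alone and 24.3% for depleted alone. By whole-peak overlap the T530A-alone, wild-type-rescue-alone and aphidicolin-alone peaks thus lay within 3 points of each other for each mark, and the depleted-alone peaks were higher. Widths differed, however, with a median of 2800 bp for wild-type-rescue-alone peaks against 1600 bp for T530A-alone and 1800 bp for aphidicolin-alone peaks. In the middle 200 bp the T530A-alone peaks were the highest of these 3 classes in each mark. There H4K16ac lay at 22.6% (22.01 to 23.2) of T530A-alone, 18.2% (17.4 to 19.1) of wild-type-rescue-alone and 20.3% (19.7 to 20.9) of aphidicolin-alone peaks. pSIRT1 lay at 10.7, 9.04 and 8.75% and pMCM2 at 12.8, 9.90 and 11.1% in that order. Among peaks over 2400 bp, pSIRT1 overlapped 21.03, 16.1 and 17.4%. From 1400 to 2400 bp it overlapped 14.3, 15.6 and 12.3%, and from 800 to 1200 bp 13.5, 16.8 and 11.6%. H4K16ac in these middle classes was also lower at T530A-alone than at wild-type-rescue-alone peaks, 35.4 against 37.65% and 34.9 against 38.6%. The order of T530A-alone and wild-type-rescue-alone peaks thus depended on the width class. Against shared peaks of its own list, the depleted-alone class was lower in pSIRT1 by -25.9 points, while the T530A, wild-type rescue and aphidicolin classes were lower by -45.6, -47.4 and -47.3 points. The depleted list also held the most reads in peaks, and the part of depth in this difference was not tested.

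**Figure D3:**
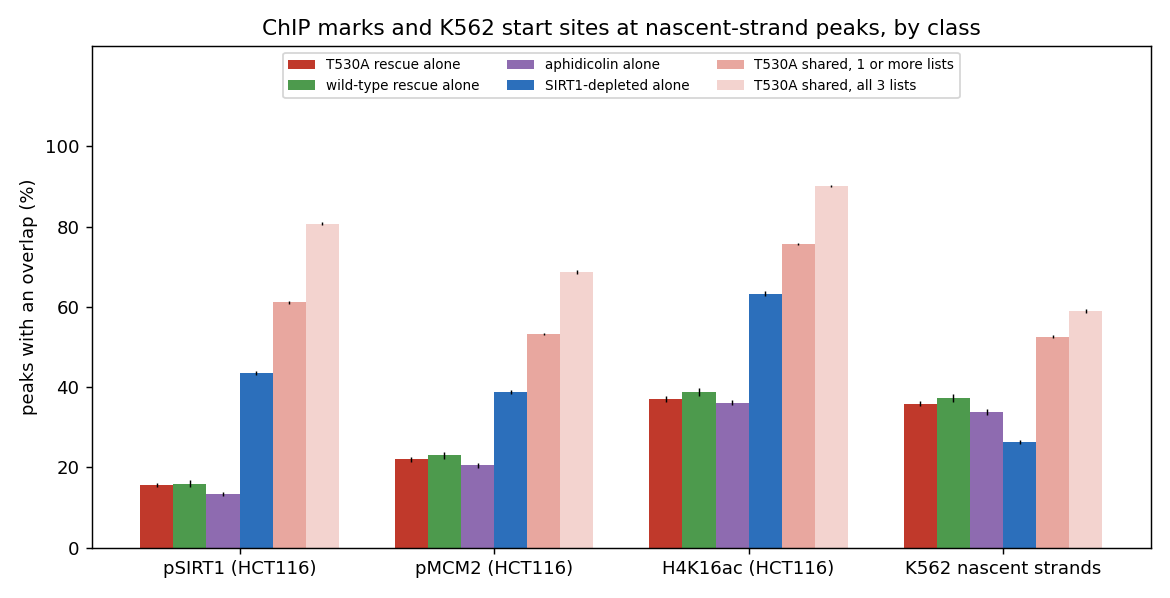
Share of peaks (y axis, %) that overlap pSIRT1, pMCM2 or H4K16ac of HCT116 or any K562 nascent-strand list, for 4 classes found in 1 HCT116 nascent-strand list and 2 classes of shared T530A peaks. Error bars are 95% exact binomial intervals and cover counting error only. T530A-alone peaks stand at 15.5, 22.1, 37.0 and 35.9%, next to the wild-type-rescue-alone and aphidicolin-alone peaks, while depleted-alone peaks are higher in the 3 marks and lower in K562 use.

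In K562 cells the depleted-alone peaks changed place in the order of the classes, and the other classes kept theirs. A nascent-strand peak of any S-phase fraction lay at 6587 T530A-alone sites, 35.9% (35.2 to 36.6), beside 49.6% of all T530A rescue peaks and 52.6% of shared ones. The depleted-alone peaks, richer in marks, were used less in K562, at 26.4% (25.9 to 26.9), and the wild-type-rescue-alone and aphidicolin-alone peaks stood at 37.3 and 33.8%. The difference of members from shared peaks, -16.7 points, was no smaller within 1 Mb bins, at -20.5 points. At 200 bp around the middle 31.1% of members met a K562 start site, and the joined K562 lists cover 11.9% of the span. A window of 200 bp meets a list more often than a single base does, and an excess over the covered length was not tested.

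Early S was met by 20.8% of members, middle S by 18.4% and late S by 22.2%, beside 31.8, 33.3 and 34.7% of all T530A rescue peaks. Among members middle S gave the lowest share, and among shared peaks early S did (34.2%, against 36.4% in middle and 37.4% in late S). Middle S was also lowest at wild-type-rescue-alone (19.15%) and aphidicolin-alone peaks (17.2%), and early S at depleted-alone peaks (12.35%). The 3 fractions are different libraries with 73296, 67803 and 81959 peaks. All 3 fractions together lay at 1421 members (7.74%), beside 18.5% of all T530A rescue peaks and 20.8% of shared ones. Use in 1 fraction alone differed less and not in 1 direction. Early S alone lay at 1092 members (5.95%), beside 5.01% of all T530A rescue peaks and 4.81% of shared ones. Middle S alone lay at 896 (4.88%), beside 6.04% of all and 6.29% of shared peaks. Late S alone lay at 1337 (7.28%), beside 6.94% of all and 6.87% of shared peaks. K562 peaks that touched only members had medians of 57, 64 and 61 reads in early, middle and late S. Those at shared peaks had 74, 87 and 77 reads.

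HCT116 marks differed by a few points between members that K562 also used and those it did not. Of the 6587 members with a K562 start site, 13.7% overlapped pSIRT1 of HCT116, and of the 11771 without, 16.5% did. For H4K16ac the shares were 36.8 and 37.2%. Only pMCM2 was higher with K562 use, 24.8 against 20.5%. Shared T530A peaks had the same order for pSIRT1, 57.1% with and 65.6% without K562 use, and for pMCM2, 54.5 and 51.9%. The median read counts of members with and without K562 use were 69 and 65. A total of 3258 members (17.7%) had a K562 start site and none of the 3 HCT116 marks, beside 9.62% of all T530A rescue peaks and 7.88% of shared ones. Neither marks nor K562 use was found at 6125 members (33.4%), beside 11.6% of all and 6.99% of shared peaks.

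The K562 ChIP lists were sparse at the members too. pSIRT1 of K562 from G1 cells lay at 8.81% of members, and the S-phase fractions gave 3.51, 1.31 and 15.7% from early to late, G2 4.58% and unfractionated cells 12.6%. All T530A rescue peaks had 32, 13.4, 15.3, 49.3, 17.3 and 37.2% in that order. pMCM2 of K562 lay at 2.25, 4.44, 4.23, 5.20 and 12.3% of members from G1 to G2, beside 11.9, 18.6, 19.5, 19.2 and 36.2% of all T530A rescue peaks. The lists differ in length and width, so phases are not compared here.

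T530A-alone sites lay near other start sites. The median gap from the edge of a member to the nearest peak of the 3 other lists was 4800 bp (95% interval 4800 to 5000), and 2456 members (13.4%) had one within 1 kb and 9436 (51.4%) within 5 kb. The rule keeps every peak that shares no base pair with another list, and 0.779% of members directly abutted one, at a distance of 0 bp. The distances thus describe the members and test nothing. Wild-type-rescue-alone, depleted-alone and aphidicolin-alone peaks had medians of 4200, 4600 and 5400 bp. Taken singly, the depleted and aphidicolin lists were each 10200 bp away at the median and the wild-type rescue list, with fewer peaks, 13000 bp. The nearest peak belonged to the depleted list for 33.4% of members, to the aphidicolin list for 33.1% and to the wild-type rescue list for 25.2%, with ties in the rest.

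Within their own list, members were less crowded than shared peaks. The nearest T530A peak of either kind was 9200 bp away from a member at the median and 3400 bp from a shared peak. Both list neighbours were shared peaks for 9681 members (52.7%), 1 neighbour was a member for 7008 (38.2%) and both were for 1662 (9.05%). Of shared peaks, 72.7% had shared peaks on both sides, 23.6% had 1 member as a neighbour and 3.59% had members on both sides. The longest unbroken run held 10 members between 120544601 and 121024800 of chromosome 9, with 35 to 107 reads each.

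Marks fell off with distance from the other start sites, and K562 use did not. pSIRT1 lay at 22.7% (21.1 to 24.4) of the members within 1 kb of another list, 18.1% from 1 to 5 kb, 13.99% from 5 to 10 kb, 11.4% from 10 to 20 kb, 8.67% from 20 to 50 kb and 4.79% (3.03 to 7.17) of the 459 members beyond 50 kb. H4K16ac went from 44.5 to 19.0% over the same range, and pMCM2 from 24.1 to 17.6%. Members without any mark made up 43.0% of the nearest class and 67.8% of the farthest. K562 start sites lay at 33.7% (31.8 to 35.6) of the nearest and 39.0% (34.5 to 43.6) of the farthest members. The median width was 1800 bp in the nearest class and 1600 bp in all others. Reads went from a median of 70 to 61. Wild-type-rescue-alone peaks showed the same course for pSIRT1, from 21.6 to 2.88%, and aphidicolin-alone peaks from 20.2 to 8.28%. Depleted-alone peaks went from 51.2 to 27.8%, so that even their farthest class lay above the nearest class of the T530A-alone peaks.

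**Figure D4:**
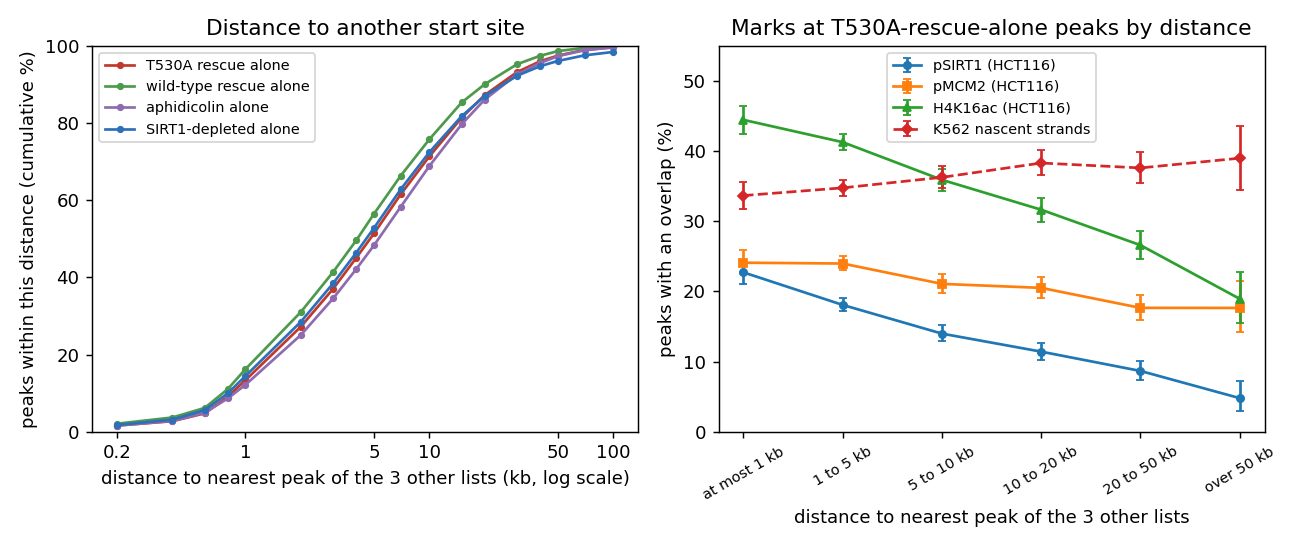
Left, cumulative share of peaks (y axis, %) within a given distance of the nearest peak of the 3 other lists (x axis, kb, log scale) for the 4 classes found in 1 list. Right, share of T530A-alone peaks that overlap each mark or a K562 start site (y axis, %) by that distance (x axis), with 95% exact binomial intervals that cover counting error only. The 4 curves on the left lie close together, while on the right pSIRT1 falls from 22.7 to 4.79% and K562 use lies between 33.7 and 39.0%.

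Members were spread over the genome. Of the 2819 bins of 1 Mb with a T530A peak, 2747 (97.4%) held at least 1 member, with a median of 6 per bin. On the autosomes members numbered between 4.49 per Mb, on chromosome 22, and 8.63 per Mb, on chromosome 5. All T530A peaks ranged more widely, from 22.7 per Mb on chromosome 4 to 54.0 on chromosome 19. Among the autosomes, the share of T530A peaks that were members was therefore highest on sparse chromosomes, 27.3% on chromosome 4 and 24.4% on chromosome 13. It was lowest on chromosomes 22, 19 and 17, at 10.9, 11.1 and 11.4%. Chromosomes 4 and 13 are gene-poor, and 19, 22 and 17 are gene-rich. Chromosome X held 353 T530A peaks, 2.27 per Mb, and 95 members, 0.612 per Mb. Both were sparse there, and members made up 26.9% (22.35 to 31.9) of its T530A peaks. By 1 Mb bins, members made up 38.6% of T530A peaks in the quartile of bins with the fewest, 1 to 18 peaks, and 9.99% in the quartile with the most, 53 to 152. pSIRT1 overlapped 7.25% of members in the first of these and 23.1% in the last, against 31.8 and 71.0% of shared peaks, so members were lower in sparse and in dense bins. In the wild-type rescue list the share of peaks found there alone was 16.5% on chromosome 4 and 4.27% on chromosome 19, and in the aphidicolin list 30.9 and 11.9%. In the depleted list it was 35.4 and 23.1% on these chromosomes, but it was highest on chromosome X, at 71.4%, and lowest on chromosome 21, at 11.3%.

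**Figure D5:**
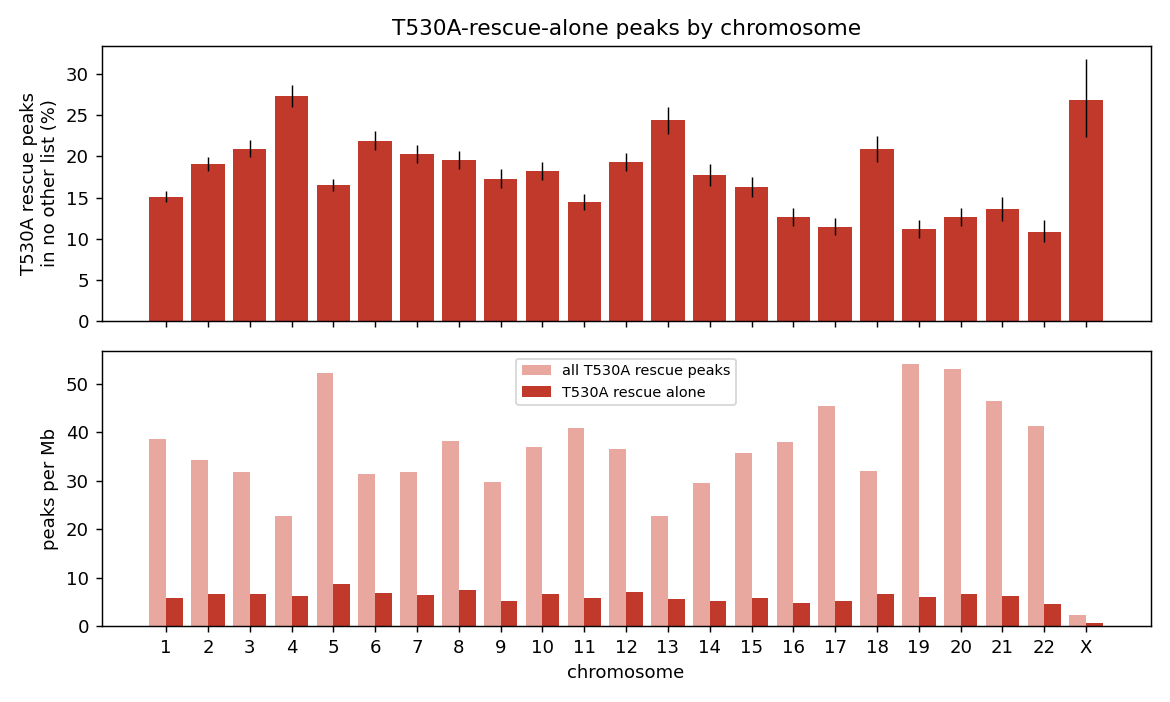
Above, share of T530A rescue peaks that are in no other list (y axis, %) by chromosome (x axis), with 95% exact binomial intervals that cover counting error only. Below, T530A rescue peaks per Mb, all and T530A-alone. Density of all peaks varies from 22.7 to 54.0 per Mb between autosomes and that of T530A-alone peaks from 4.49 to 8.63, so the share is highest on chromosome 4, at 27.3%.

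The first 50 Mb of chromosome 5 departed from this pattern. There the T530A list held 5183 peaks, 4.98% of the list, and 697 of them were members, 13.9 per Mb against 5.88 per Mb on the chromosomes other than 5 and 21. The 5 bins of 1 Mb with the most members all lay in this segment. The first, from 29000001 to 30000000, held 36 members among 118 T530A peaks, with 84 wild-type rescue, 14 depleted and 6 aphidicolin peaks. The bins that start at 22000001, 26000001, 25000001 and 18000001 held 35, 30, 29 and 28 members, each with 83 to 89 wild-type rescue peaks, 19 to 31 depleted peaks and 9 to 22 aphidicolin peaks. In these 5 bins both rescue lists were dense while the depleted and aphidicolin lists were not. Ranking bins by members favours bins with few peaks of the other lists, so these counts do not describe the whole segment. The segment held 4.64% of the wild-type-rescue-alone peaks, 0.319% of the depleted-alone and 0.131% of the aphidicolin-alone peaks. Its members were nearly bare of marks, with pSIRT1 at 1.43%, pMCM2 at 8.46% and H4K16ac at 5.74%, while 30.3% had a K562 start site. Shared T530A peaks of the segment were also poor in marks, with pSIRT1 at 24.4%. The share of T530A peaks that were members, 13.4% (12.5 to 14.4), lay below the 17.7% of the genome, though not among peaks with at least 100 reads, where both were 5.63%. On the rest of chromosome 5 it was 20.3%, and on chromosome 21 13.6%. Copy number of these segments in each clone was not analysed here.

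The member with the most reads was at 84910401 to 84927800 of chromosome 16 on hg19, also the widest member at 17400 bp, with 745 reads. It ranked 1260 by reads in the whole T530A list and was 11.6 kb from the next start site of another list. It carried 4 pSIRT1 peaks with 370 reads in sum, 1 pMCM2 peak of 69 reads, 3 H4K16ac peaks and no K562 start site. The second, at 190932601 to 190942600 of chromosome 4, near the end of the long arm, had 664 reads and carried all 3 marks, with 427 reads summed over 2 pSIRT1 peaks and 798 over 3 pMCM2 peaks, and a K562 middle S peak of 108 reads. The third, at 148867001 to 148873600 of chromosome 1, had 509 reads, a pMCM2 peak of 111 reads and no pSIRT1 or H4K16ac. K562 peaks there held 381, 1955 and 1328 reads from early to late S, against list medians of 60, 69 and 62. Whether reads at the named members map to a single place in the genome was not examined. Members at 70514801 to 70522000 of chromosome 5 and 57451601 to 57459400 of chromosome 6 had 495 reads each. The former carried pMCM2 and H4K16ac without K562 use, the latter 2 H4K16ac peaks and all 3 K562 fractions, with 233 to 308 reads.

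All 3 marks and K562 use came together at 314 members (1.71%), beside 15.8% of all T530A rescue peaks and 18.8% of shared ones. After the chromosome 4 site, those with the most reads were at 35257801 to 35269400 of chromosome 10 (454 reads), 120831801 to 120838200 of chromosome 8 (306 reads), 47194601 to 47200800 of chromosome 17 (298 reads) and 197325401 to 197332800 of chromosome 3 (296 reads). Each of these 4 was used in 1 K562 fraction and lay 1.2 to 2.6 kb from another HCT116 start site. Among the 6125 members without marks or K562 use the highest counts were lower. They were 271 reads at 113261401 to 113268800 and 233 reads at 121818001 to 121823600 of chromosome 10, 231 reads at 77339601 to 77345600 of chromosome 8, and 221 reads each at 3087401 to 3093600 and 12012601 to 12018800 of chromosome 5. The other 2 of the 3 widest members were 11600 bp each, the chromosome 10 site above and one at 65318001 to 65329600 of chromosome 17, which had 456 reads, pSIRT1, H4K16ac and all 3 K562 fractions.

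The 459 members beyond 50 kb had a median of 61 reads, against 67 over all members. Beyond 100 kb from any other HCT116 start site lay 61 members. The farthest, at 76290801 to 76291400 of chromosome X, was 1104 kb away and held 35 reads, with a pMCM2 peak of 857 reads, H4K16ac (score 30) and K562 peaks in middle and late S of 71 and 78 reads. The next, at 138222001 to 138223000 of chromosome X, was 712.2 kb away with 50 reads, 497 pMCM2 reads and all 3 K562 fractions. Both thus had more pMCM2 than nascent-strand reads, in lists not scaled to each other. The other three had no mark and no K562 use. They lay at 93773201 to 93774000 and 93708201 to 93709600 of chromosome 4, with 44 and 66 reads at 285.2 and 264.6 kb, and at 46006601 to 46009400 of chromosome 5, with 79 reads at 240.2 kb.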

How the data were processed

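Peak lists of 21 of the 23 samples were used, with 1 library per group. Reads of the 2 genomic controls were not used here. The build is hg19 and the callers named are MACS and SICER, without version or settings, per the submitters' processing notes. Neither aligner nor thresholds are stated in the sources at hand. Per the labels, sheared DNA of the same line was the control for peak calling. The files have no header. For 18 lists the values the authors deposited are whole, and were taken as read counts per peak that are not scaled for depth. For pSIRT1 of K562 in middle S and in G2 the deposited value is a decimal score. Columns of the H4K16ac file are laid out as MACS writes them. They hold a deposited score, which was used, a deposited fold over control, and deposited −log10 values for p and for q. Values of a peak served to rank or describe peaks within its own list. Where values of different lists stand side by side, they are not scaled to each other.

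Starts are printed from 1. No list held overlapping peaks. An overlap needs at least 1 bp, and distances run from edge to edge. Shares have 95% exact binomial intervals, and the median distance an exact order-statistic interval. Interval functions were tested on simulated data. No random or relocated lists were used and no p-value was computed. Members, comparisons and alternatives were chosen with earlier results of these data known. Named members were the 5 with the most reads, the 5 with the most reads among those with all marks and K562 use and among those with neither, the 5 farthest from other lists, the 3 widest, and the 5 bins of 1 Mb with the most members. Genes and sequences at hg19 coordinates are not reported here, because the reference tables at hand are of another build. Analyses used Python 3.11.15, numpy 2.4.6, scipy 1.17.1 and matplotlib 3.10.9.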

Additional observations from a re-analysis of the deposited data

How the results depend on the processing

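The share of members was below that of shared T530A peaks for pSIRT1, pMCM2, H4K16ac and K562 start sites in 43 of 43 alternatives, and 33 of them moved the difference beyond its counting interval. In percentage points, and in the order pSIRT1, pMCM2, H4K16ac, K562, the middle 200 bp gave -34.4, -15.3, -31.5 and -11.2, the higher-scoring 50% of the other list -38.1, -27.6, -39.7 and -19.3, and 1 Mb bins -32.0, -23.1, -27.9 and -20.5. Bins with width classes gave -28.6, -18.5, -24.8 and -18.5. The mean of 4 width classes gave -37.3, -23.2 and -32.5 for the marks, leaving out chromosomes 5 and 21 gave -47.4, -31.9 and -40.1, and K562-used peaks only gave -43.3, -29.6 and -37.2. An overlap of 50% of the shorter peak gave -43.9 for pSIRT1 and -30.2 for pMCM2. Members with no other peak within 1 kb gave -46.7 for pSIRT1 and -39.7 for H4K16ac, and overlaps counted within 1 kb gave -37.2 for H4K16ac. With at least the median read count the values were -33.1 for pMCM2, -31.9 for H4K16ac and -14.02 for K562. Bins and K562-used peaks were chosen after seeing the data. The number of members stayed within 1.5 times under 6 of 7 alternatives (15902 to 27529), and was 2953 with at least the median read count. The median distance was 7200 bp between middles and 10200 bp to the depleted list alone. The member share on the first 50 Mb of chromosome 5 was 6.72% by covered length, 10.1% with a 1 kb margin and 5.63% with at least the median read count, and on chromosome 21 6.03, 10.2 and 4.87%, beside 9.74, 15.3 and 5.63% over the genome. It was 16.5% over the whole of chromosome 5. The smallest read counts listed were 24 to 31, and the part of depth in membership was not tested. No paired analysis was possible because each group had 1 library, and for the same reason no replicate could be left out.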
